A study of Mus musculus with 12 samples.

Results

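The NRF2 pathway antioxidant genes examined here were Nfe2l2, Keap1, Nqo1, Gclc, Gclm, Txnrd1, Srxn1, Prdx1, Cat and Htatip2, a set of 10 chosen by name. Their members were the open chromatin regions of mouse hepatocytes that overlapped a gene's span or lay within 20 kb of it. Of 292665 regions found in the 12 libraries, 211 met this rule. Of these, 125 were kept in at least 3 libraries and could be tested, among 138538 such regions in all. The assay was ATAC-seq, in which a transposase cuts accessible DNA, and the data were the peak lists called for each library separately. The libraries came from 3 mice in each of 4 groups: Alb-Cre/FBXL5F/F mice on 0.1% DDC diet, Alb-Cre/FBXL5F/F mice on standard diet, FBXL5F/F mice on 0.1% DDC diet and FBXL5F/F mice on standard diet. Both diets lasted 2 weeks, and hepatocytes were taken from the liver by collagenase perfusion. All 4 groups carried the floxed Fbxl5 alleles, so the control genotype was the floxed mouse without Cre. Cre was driven by the albumin promoter, which limits deletion to hepatocytes and other cells that have used this promoter. FBXL5 is a ubiquitin ligase subunit that limits cellular iron, and the DDC diet blocks heme synthesis and causes cholestatic liver injury. The ages and sexes of the mice were not given in the labels used here.

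NRF2, the product of Nfe2l2, is a transcription factor that is held at a low level by KEAP1, an adaptor that presents it to the CUL3 ubiquitin ligase. Oxidants and electrophiles modify KEAP1, NRF2 then builds up, and with small MAF proteins it binds the antioxidant response element of its target genes. In liver it is known for inducing glutathione synthesis, quinone reduction and the thioredoxin system. Gclc and Gclm encode the catalytic and the modifier subunit of glutamate-cysteine ligase. Nqo1 encodes a quinone reductase. Txnrd1 encodes cytosolic thioredoxin reductase, Prdx1 a peroxiredoxin, and Srxn1 the sulfiredoxin that repairs over-oxidised peroxiredoxins. Cat encodes catalase, which breaks down hydrogen peroxide in peroxisomes, and Htatip2 an oxidoreductase also known as TIP30.

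Promoter sequences from RefSeq (GRCm38.p6, the assembly behind mm10) were matched for 9 of the 10 genes, giving 12 start sites, and Gclc was unmatched. The 250 bases before each start were searched on both strands for the core letters of the antioxidant response element, TGACNNNGC, and for the AP-1 motif, TGANTCA. The response element core was found before 5 of the 12 starts, against 10.2% of the 32851 promoter windows in the table. AP-1 letters were found before 3 of the 12 starts, against 6.75% of all windows. The 6 windows that held either motif are printed here, 5′ to 3′ on the gene's strand, with the matched letters in capitals, because their open regions are compared below.
Nfe2l2, minus strand, chr2:75704664-75704913: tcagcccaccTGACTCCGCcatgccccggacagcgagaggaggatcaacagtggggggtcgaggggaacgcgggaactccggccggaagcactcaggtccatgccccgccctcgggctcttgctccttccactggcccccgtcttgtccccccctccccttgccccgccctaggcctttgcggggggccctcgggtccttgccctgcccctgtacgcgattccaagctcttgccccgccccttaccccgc
Gclm, plus strand, chr3:122245307-122245556: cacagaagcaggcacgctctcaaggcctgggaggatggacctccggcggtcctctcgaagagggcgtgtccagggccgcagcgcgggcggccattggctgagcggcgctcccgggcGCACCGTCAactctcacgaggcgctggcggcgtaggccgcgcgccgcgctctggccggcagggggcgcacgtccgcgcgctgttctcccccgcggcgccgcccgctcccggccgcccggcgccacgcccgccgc
Txnrd1, plus strand, chr10:82858956-82859205: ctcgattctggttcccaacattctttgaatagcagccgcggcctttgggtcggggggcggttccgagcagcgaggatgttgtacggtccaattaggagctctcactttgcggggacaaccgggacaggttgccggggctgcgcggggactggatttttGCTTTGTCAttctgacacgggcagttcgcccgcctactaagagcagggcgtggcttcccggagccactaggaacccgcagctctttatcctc
Prdx1, plus strand, chr4:116685349-116685598: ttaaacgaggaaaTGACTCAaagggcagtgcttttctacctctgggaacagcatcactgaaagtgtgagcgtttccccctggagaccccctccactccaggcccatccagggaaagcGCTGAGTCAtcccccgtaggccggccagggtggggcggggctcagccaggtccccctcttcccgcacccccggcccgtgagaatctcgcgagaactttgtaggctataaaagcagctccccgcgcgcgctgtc
Srxn1, plus strand, chr2:152105274-152105523: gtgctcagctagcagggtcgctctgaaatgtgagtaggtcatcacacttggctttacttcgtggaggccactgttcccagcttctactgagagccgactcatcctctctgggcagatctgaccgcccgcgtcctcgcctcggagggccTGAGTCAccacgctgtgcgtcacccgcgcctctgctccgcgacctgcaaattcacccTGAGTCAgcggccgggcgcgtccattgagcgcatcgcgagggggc
Htatip2, plus strand, chr7:49759262-49759511: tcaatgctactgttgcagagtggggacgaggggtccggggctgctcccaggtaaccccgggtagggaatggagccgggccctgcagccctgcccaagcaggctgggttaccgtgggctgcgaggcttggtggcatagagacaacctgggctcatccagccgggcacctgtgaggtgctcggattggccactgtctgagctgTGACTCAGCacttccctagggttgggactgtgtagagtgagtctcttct

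In the Prdx1 and Htatip2 windows the response element core and an AP-1 match shared letters. Prdx1 also held a separate AP-1 match that began 237 bases before the start, and its shared match began 133 bases before the start. Srxn1 held 2 AP-1 matches, which began 102 and 45 bases before the start, and no response element core. The core began 134 bases before the Gclm start, 92 before the Txnrd1 start, 240 before the Nfe2l2 start and 49 before the second Htatip2 start. These windows were rich in G and C: the median GC content of the 12 was 61.8%, against 52.4% over all windows. The GC box GGGCGG was found in 9 of the 12, against 32.7% of all windows. A match describes letters only and does not show a bound site.

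The peak lists give no reads, which leaves the sequencing depth unknown, and each region's value is a rank. The 12 lists held 137034 to 262080 peaks, and the strongest 137034 of each were kept and ranked by the authors' fold enrichment. Each rank was given the mean log2 fold enrichment of that rank over the 12 libraries, and a region absent from a kept list was given the lowest value, 1.27. Libraries 1 and 3 of the Fbxl5-deleted mice on standard diet stood apart, with 262080 and 260622 peaks. The counts of called member regions and the main differences that rest on them are also given without them. Counts over the other gene lists, at an unadjusted p or of groups without overlap, and the marker sums, are given with them only. All 10 hepatocyte marker genes had a region kept in all 12 libraries. The lymphocyte markers Cd8a, Ms4a1 and Nkg7 had no region kept in any library, and of the 7 cholangiocyte markers Krt19 had none. Macrophage, stellate and sinusoidal endothelial markers were open in all 12 libraries at 4 of 7, 5 of 7 and 7 of 7 genes. Cholangiocyte and lymphocyte markers were open in all 12 libraries at 4 of 7 and 1 of 7 genes. The peak at the end of the Fbxl5 gene was kept in all 12 libraries and differed between genotypes by -0.05 ± 0.19 on DDC and by 0.19 ± 0.19 on standard diet (log2, SE). The labels do not say which part of Fbxl5 was deleted, so this peak does not check the deletion.

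Open chromatin was found at each of the 10 genes. Of the 211 regions, 69 were kept in all 12 libraries, 69 in a single library and 17 in 2 libraries. The tested share was 59.2% of these regions, against 47.3% of all regions. Of the 125 tested regions, 56 overlapped a member gene's span and 69 lay outside it, and 28 overlapped another gene. Their median level was 2.09, against 1.99 over all tested regions (log2). Cat had 20 tested regions, Gclc 19, Txnrd1 18, Keap1 15 and Nfe2l2 14, while Prdx1 and Htatip2 had 10 each, Nqo1 8, Gclm 7 and Srxn1 4.

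Each of the 10 genes had a start region open in all 12 libraries. Where a gene had several starts, the start region with the highest mean was used. Of the 3 Txnrd1 starts, the one at chr10:82833951 lay in no open region. For Gclc, whose start is not in the promoter table, the strongest region within 1 kb of a gene end was used. Levels are the rank-mapped fold enrichment on the log2 scale, given as the mean ± SD over 12 libraries. The highest starts belonged to the thioredoxin system: Txnrd1 at 3.47 ± 0.14, Srxn1 at 3.43 ± 0.17 and Prdx1 at 3.39 ± 0.19. Htatip2 followed at 3.22 ± 0.19 and Cat at 3.13 ± 0.23. Keap1 stood at 3.06 ± 0.27, Gclm at 3.01 ± 0.21, Nfe2l2 at 2.97 ± 0.26 and Nqo1 at 2.95 ± 0.23. Gclc was lowest at 2.62 ± 0.25. The order is loose, because 8 of the 9 neighbouring pairs differed by less than the spread of their difference over libraries. The exception was Nqo1 above Gclc, by 0.33 ± 0.31 and in 10 of 12 libraries. The median rank of the Txnrd1 start was within the top 14.9% of kept peaks, and that of the Gclc region within the top 35.1%.

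**Figure D1:**
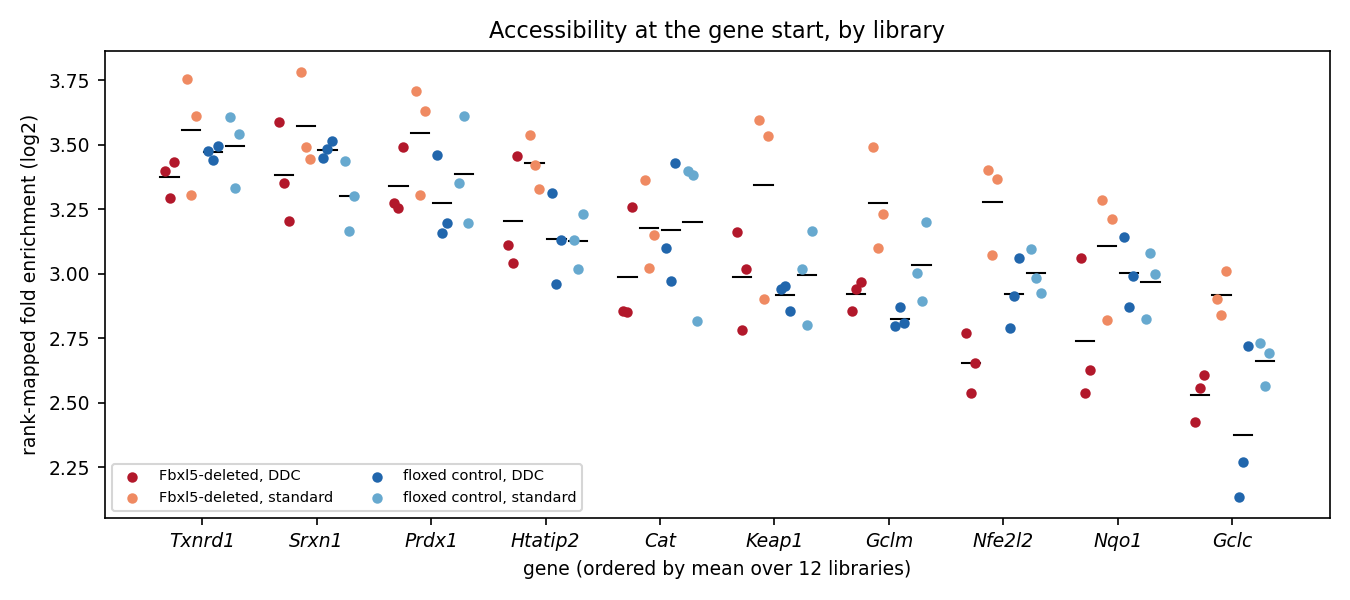
Level at the gene start of the 10 genes in each library. The y axis is the rank-mapped fold enrichment (log2), each point is 1 library, bars are group means (n = 3 mice), and genes run from the highest mean (Txnrd1, 3.47) to the lowest (Gclc, 2.62). In the Fbxl5-deleted mice on standard diet, library 1 was among the 2 highest libraries at 9 of the 10 starts.

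No gene start passed the test in any comparison (limma over all 138538 regions, Benjamini-Hochberg adjusted p under 0.05). The Nfe2l2 start, chr2:75703399-75705492, came closest. It stood at 2.77, 2.54 and 2.65 in Fbxl5-deleted mice on DDC, against 3.40, 3.07 and 3.37 in Fbxl5-deleted mice on standard diet. All 3 DDC libraries lay below all 3 standard libraries. In floxed controls it stood at 2.79, 2.91 and 3.06 on DDC, against 3.10, 2.98 and 2.93 on standard diet, and these groups overlapped. The difference was -0.63 ± 0.19 in deleted mice (log2, SE, limma adjusted p = 0.0707) and -0.08 ± 0.19 in controls (limma adjusted p = 0.854). Without deleted standard libraries 1 and 3 it was -0.42 in deleted mice, and the adjusted p ranged from 0.0323 to 0.585 over the alternatives tried.

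The Keap1 start, chr9:21238530-21239500, stood at 3.16, 2.78 and 3.02 in deleted mice on DDC, against 3.59, 2.90 and 3.54 in deleted mice on standard diet, which overlapped. In controls it stood at 2.94, 2.95 and 2.85 on DDC, against 3.02, 2.80 and 3.17 on standard diet. The Nqo1 start, chr8:107402975-107403913, stood at 3.06, 2.54 and 2.62 in deleted mice on DDC, against 3.29, 2.82 and 3.21 in deleted mice on standard diet. The groups overlapped at the Keap1 and Nqo1 starts in each diet comparison. At the Gclm start all DDC libraries lay below all standard libraries in both genotypes (limma adjusted p = 0.324 in deleted mice and 0.565 in controls). At the Gclc region this held in deleted mice only (limma adjusted p = 0.372). At the Srxn1 start all DDC libraries lay above in controls (limma adjusted p = 0.567). Without deleted standard libraries 1 and 3 the difference in deleted mice was -0.18 at Gclm and -0.31 at Gclc. Over the 10 starts, the DDC minus standard difference in deleted mice was negative at all 10, between -0.63 and -0.18. It was negative at 7 and positive at 3 once deleted standard libraries 1 and 3 were left out, between -0.42 and 0.08. In floxed controls 7 were negative and 3 positive, between -0.29 at Gclc and 0.18 at Srxn1. Library 1 of the deleted mice on standard diet was among the 2 highest libraries at 9 starts and library 3 at 7 starts.

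In Fbxl5-deleted mice the DDC diet raised 1 of the 125 tested regions and lowered none. In all tested regions 3.17% passed the test in this comparison, 2.43% higher and 0.743% lower, so the share among the pathway genes, 0.8%, was not above the background. In floxed controls DDC raised 4 regions and lowered 5, which is 7.2% against a background of 7.02% (4.66% higher and 2.36% lower). The share called in controls was therefore close to that of the genome at large. The 9 regions lay at Prdx1, with 2 higher and 2 lower, at Htatip2, with 1 higher and 1 lower, at Nfe2l2, with 2 lower, and at Txnrd1, with 1 higher. No region of Keap1, Nqo1, Gclc, Gclm, Srxn1 or Cat passed the test in any comparison. The median difference over the 125 regions was -0.07 in deleted mice, against 0.01 over all tested regions, and -0.08 in controls, against -0.01 (log2). Without deleted standard libraries 1 and 3 the count in deleted mice was 0 and the median 0.00. Leaving out any 1 of the 6 control libraries brought the count in controls to between 2 and 4, with 3.61% to 5.99% of all regions called.

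In deleted mice, all 3 DDC libraries lay above all 3 standard libraries at 7 regions (5.6%, background 10.1%) and below them at 17 regions (13.6%, background 8.19%). These counts were not repeated without deleted standard libraries 1 and 3, which would leave a single library to compare. In controls they lay above at 11 regions (8.8%, background 12.7%) and below at 26 regions (20.8%, background 11.9%). The regions of the 10 hepatocyte marker genes gave 6 of 152 above (3.95%) and 25 below (16.4%) in deleted mice. In controls 9 of these 152 lay above (5.92%) and 32 below (21.1%). The 440 tested regions of 37 other pathway genes, described below, gave 31 above (7.05%) and 58 below (13.2%) in deleted mice. For controls they gave 40 above (9.09%) and 66 below (15%). The share below in controls was 18.5% of cholangiocyte and 20% of lymphocyte marker regions. It was 11.1% of endothelial, 6.12% of stellate and 2.17% of macrophage marker regions. These marker sets gave 2.04% to 8.7% below in deleted mice.

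**Figure D2:**
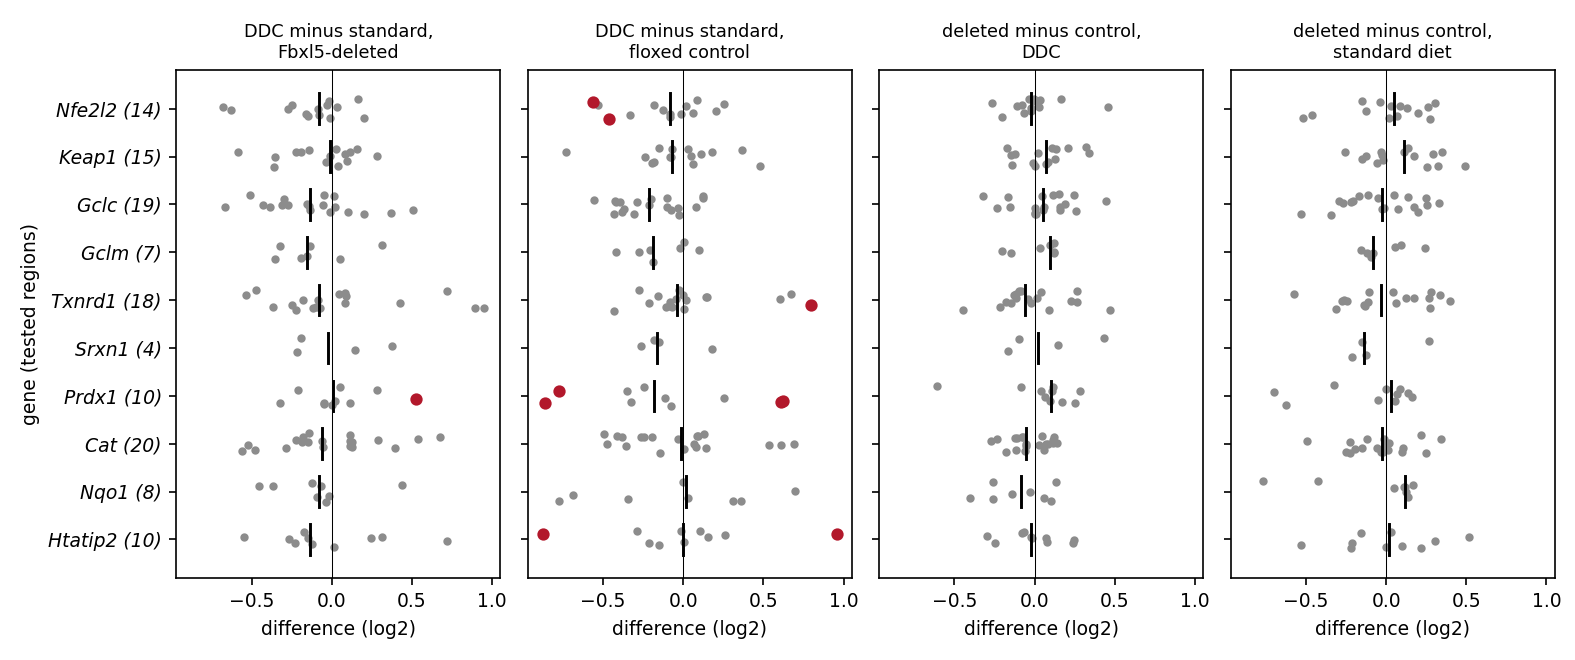
Differences of the 125 tested regions in the 4 comparisons, by gene. The x axis is the difference in rank-mapped fold enrichment (log2), each point is 1 region, black bars are the median per gene, and red points passed the test (limma adjusted p under 0.05). There is 1 red point in deleted mice and there are 9 in floxed controls, with none between genotypes.

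The Prdx1 locus held the region that passed the test in both genotypes. It lies at chr4:116679083-116679518, centred 6299 bp before the Prdx1 start and 6081 bp outside the gene, and overlaps no other annotated gene. The authors' fold enrichment there was 21.8, 19.3 and 18.4 in deleted mice on DDC, against 11.4, 13.3 and 12.8 in deleted mice on standard diet. In floxed controls it was 19.1, 20.2 and 22.7 on DDC, against 11.7, 15.0 and 11.8 on standard diet. Every DDC library lay above every standard library of its genotype. The means were 19.8 ± 1.77 on DDC and 12.5 ± 0.98 on standard diet in deleted mice, a ratio of 1.59, and 20.7 ± 1.81 on DDC and 12.8 ± 1.91 on standard diet in controls, a ratio of 1.61 (SD, n = 3 mice each). On the rank scale the region rose by 0.52 ± 0.13 in deleted mice (log2, SE, limma adjusted p = 0.0269) and by 0.62 ± 0.13 in controls (limma adjusted p = 0.00491). The difference of the rises, deleted minus control, was -0.10 ± 0.18 and did not pass the test (limma adjusted p = 0.965). The call in controls held under all 20 alternatives tried, with adjusted p between 0.00393 and 0.0383. The call in deleted mice was lost under 9 of 20, with adjusted p from 0.0220 to 0.165 over the alternatives. Without deleted standard libraries 1 and 3 the rise was 0.63 there and did not pass (limma adjusted p = 0.130). Leaving out deleted standard library 2 or 3, or any single deleted DDC library, also ended that call.

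Upstream of Txnrd1, a region at chr10:82813977-82814994 passed the test in controls. It lies 18957 bp outside the gene and overlaps the long noncoding RNA gene 1700028I16Rik. The fold enrichment was 13.7, 9.42 and 11.1 in deleted mice on DDC, against 7.03, 5.99 and 4.92 in deleted mice on standard diet. In controls it was 10.8, 9.67 and 10.0 on DDC, against 6.01, 4.32 and 5.63 on standard diet. The mean ratio was 1.91 in each genotype. On the rank scale the difference in deleted mice was 0.72 ± 0.23 (log2, SE), the groups overlapped, and it did not pass the test (limma adjusted p = 0.0907). It was 0.92 ± 0.29 without deleted standard libraries 1 and 3 (limma adjusted p = 0.164). In controls the region rose by 0.80 ± 0.23 (limma adjusted p = 0.0365), and the groups did not overlap. The call in controls was lost under 7 of 20 alternatives, with adjusted p between 0.0166 and 0.163.

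**Figure D3:**
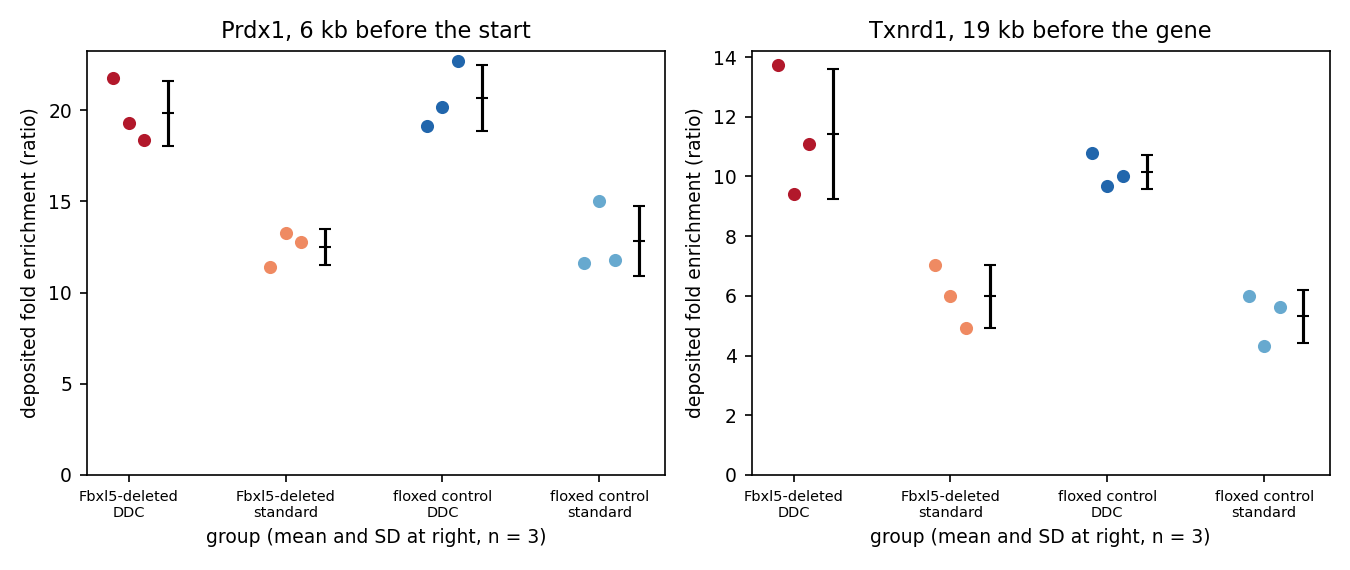
The authors' fold enrichment (ratio) in each library at the region 6299 bp before the Prdx1 start and at the region 18957 bp outside Txnrd1. Points are libraries, with the group mean and SD beside them (n = 3 mice per group). At Prdx1 the DDC libraries sit between 18.4 and 22.7 and the standard libraries between 11.4 and 15.0.

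The other 7 called regions in floxed controls were weak peaks. Each was absent from all 3 kept lists of the group with the lower value, which was so for 29.9% of the 9728 regions called in controls. The fitted difference then depends on the lowest value assigned, so the number of kept lists that held the peak is given instead. In addition, 5 of the 7, the 3 at Prdx1 and the 2 at Nfe2l2, were kept in at least 3 libraries only through the group where they were high, so the filter itself favoured a difference and their p-values are too small. Among the 125 tested regions, 43 were kept in at most 7 libraries, and all 7 of these calls came from them. Of the 47933 such regions in all, 6.77% were called.

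At Prdx1, the region chr4:116666720-116666986, 18613 bp before the gene, was kept in 0 of 3 lists of deleted mice on DDC, 0 of 3 of deleted mice on standard diet, 3 of 3 of controls on DDC and 0 of 3 of controls on standard diet. Its fold enrichment in the control DDC lists was 4.45, 4.68 and 3.02 (limma adjusted p = 0.0159, favoured by the filter). The call was lost without any 1 of the control standard libraries and over regions in at least 1 library, with adjusted p from 0.00441 to 0.157 over 18 alternatives. It was the only one of the 9 found in 1 group alone, yet the difference between genotypes on DDC did not pass the test (limma adjusted p = 0.326). The regions chr4:116674923-116675168, before the gene, and chr4:116689421-116689643, inside it, ran the other way. Each was kept in 1 of 3 lists of deleted mice on each diet. In controls each was kept in 0 of 3 lists on DDC, against 3 of 3 on standard diet. Their adjusted p in controls was 0.0171 and 0.0350 (limma), also favoured by the filter. The calls were lost under 3 and 8 of 18 alternatives, with adjusted p from 0.0126 to 0.104 and from 0.0278 to 0.181.

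Htatip2 held a pair of called regions that moved in opposite directions inside the gene. The region chr7:49762734-49763005, centred 3357 bp after the start, was kept in 3 of 3 lists of deleted mice on DDC, against 1 of 3 of deleted mice on standard diet. In controls it was kept in 3 of 3 lists on DDC, against 0 of 3 on standard diet. Its fold enrichment on DDC was 4.03, 4.78 and 5.51 in deleted mice and 5.40, 4.65 and 5.50 in controls, and the 1 standard list that held it had 3.68. It did not pass the test in deleted mice (limma adjusted p = 0.140) and passed it in controls (limma adjusted p = 0.0261). The call in controls was lost under 7 of 18 alternatives, among them leaving out any 1 control standard library or control DDC library 1 or 3, with adjusted p from 0.00736 to 0.134. The region chr7:49759865-49760248, centred 544 bp after the start, was lower on DDC in controls (limma adjusted p = 0.0381). It appeared in all 12 deposited lists. Its fold enrichment was 2.47, 3.07 and 2.54 in deleted mice on DDC, against 2.38, 2.49 and 4.14 in deleted mice on standard diet, and these groups overlapped. In controls it was 2.37, 2.61 and 2.40 on DDC, against 3.69, 4.35 and 5.01 on standard diet, without overlap, a ratio of means of 0.565. The call in controls was lost under 9 of 18 alternatives, among them leaving out control standard library 2 or 3 or any 1 control DDC library, with adjusted p from 0.0100 to 0.284. The start region of the gene did not pass the test. The strongest Htatip2 region, chr7:49777767-49778934, lies 3767 bp beyond the gene and overlaps Prmt3. It stood at 3.12, 3.21 and 3.30 in deleted mice on DDC, against 3.62, 3.50 and 4.14 in deleted mice on standard diet, without overlap. The difference of -0.55 ± 0.17 did not pass the test (limma adjusted p = 0.0901), and without deleted standard libraries 1 and 3 it was -0.30 ± 0.22. In controls it stood at 3.67, 3.49 and 3.35 on DDC, against 3.70, 3.43 and 3.83 on standard diet, with overlap.

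Nfe2l2 held 2 called regions within the gene, both lower on DDC in controls. The region chr2:75683383-75683736 was kept in 0 of 3 lists of controls on DDC, against 3 of 3 of controls on standard diet, where its fold enrichment was 3.56, 4.57 and 2.66 (limma adjusted p = 0.0428, favoured by the filter). The deposited control DDC lists held it below the kept ranks in libraries 1 and 2, at 2.62 and 2.19. The call was lost under 16 of 18 alternatives, with adjusted p between 0.0143 and 0.283. The region chr2:75698080-75698407 was kept in 1 of 3 lists of deleted mice on DDC, against 0 of 3 of deleted mice on standard diet. In controls it was kept in 0 of 3 lists on DDC, against 3 of 3 on standard diet, at 3.40, 2.82 and 3.49 there (limma adjusted p = 0.0346, favoured by the filter). This call was lost under 9 of 18 alternatives, with adjusted p from 0.0217 to 0.299. Without deleted standard libraries 1 and 3, neither Nfe2l2 region passed the test in controls (limma adjusted p = 0.0600 and 0.0528). The strongest peak of the locus, chr2:75722791-75723303, lies 18128 bp before the gene at a mean level of 4.06 and differed by -0.03 ± 0.12 in deleted mice and by -0.08 ± 0.12 in controls.

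**Figure D4:**
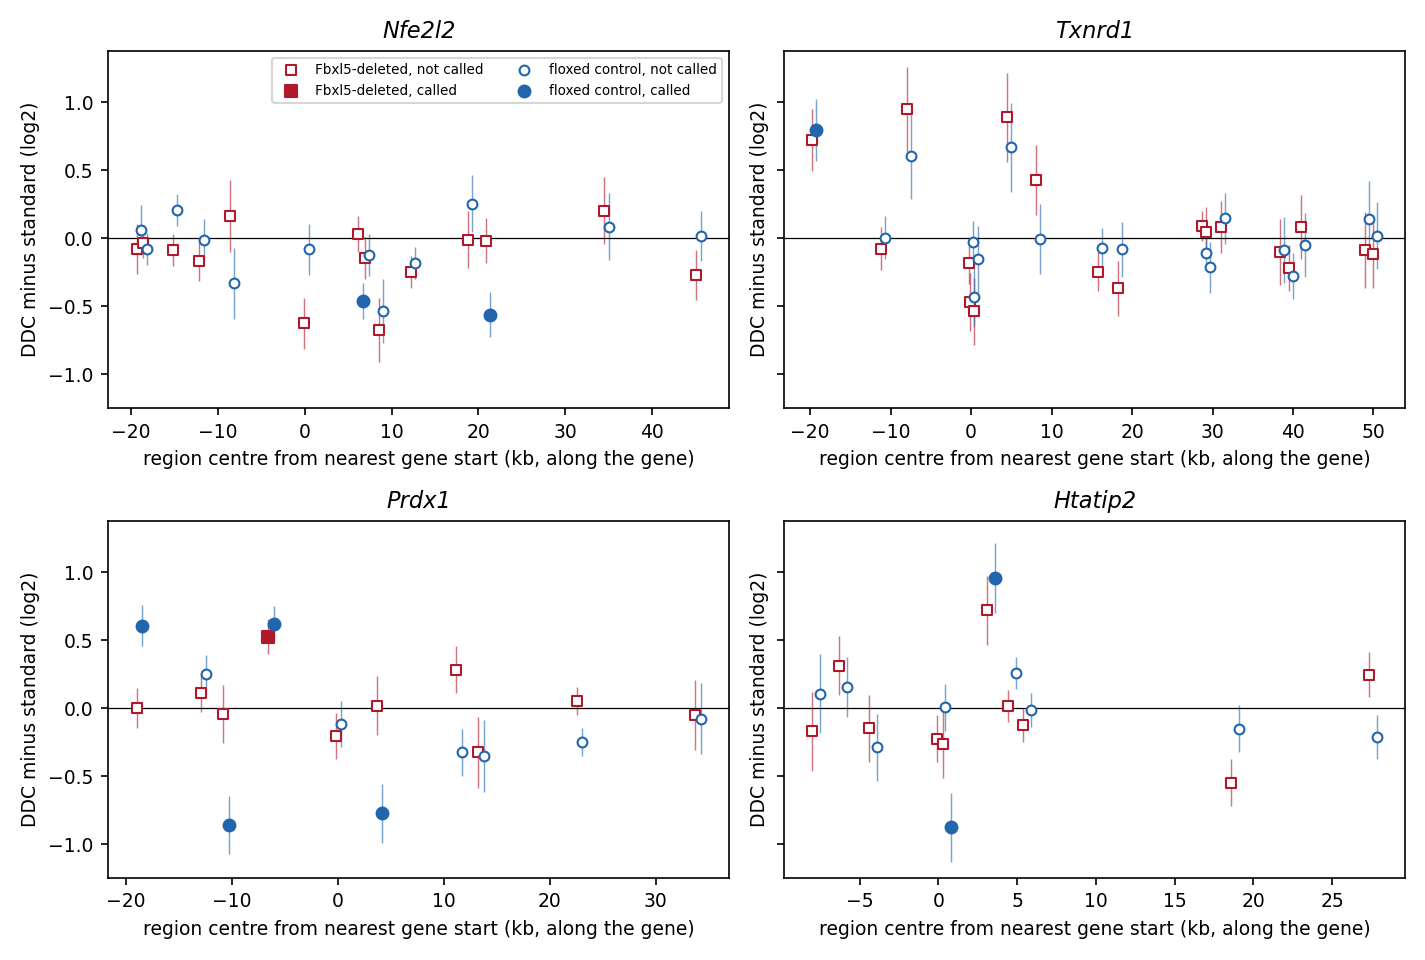
DDC minus standard difference of each tested region of Nfe2l2, Txnrd1, Prdx1 and Htatip2 against its distance from the nearest start of the gene (kb, along the gene). Red squares are Fbxl5-deleted mice and blue circles floxed controls, filled where the limma adjusted p is under 0.05, with bars of 1 SE. Filled red occurs once, at Prdx1, where the region centred 6299 bp before the start is filled in both genotypes.

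Among the genes with no called region, the strongest Gclm region, chr3:122235620-122236239, lies 9248 bp before the gene and had a mean level of 4.32. It stood at 4.44, 4.61 and 4.41 in deleted mice on DDC, against 3.93, 4.38 and 4.20 in deleted mice on standard diet, a difference of 0.32 ± 0.12 that did not pass the test (limma adjusted p = 0.172). It was 0.10 ± 0.15 without deleted standard libraries 1 and 3. In controls it stood at 4.43, 4.46 and 4.20 on DDC, against 4.43, 4.15 and 4.21 on standard diet. The strongest Gclc region, chr9:77806584-77807612, lies 12095 bp outside the gene and stood at 3.98, 3.67 and 4.04 in deleted mice on DDC, against 3.16, 3.77 and 3.24 in deleted mice on standard diet. The groups overlapped, and the difference of 0.51 ± 0.16 did not pass the test (limma adjusted p = 0.0918). Its low values were those of deleted standard libraries 1 and 3, and without them the difference was 0.13 ± 0.19. In controls it stood at 3.63, 3.79 and 3.79 on DDC, against 3.56, 3.75 and 3.66 on standard diet.

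At Keap1, the region chr9:21249518-21250872, 10186 bp before the gene, stood at 2.84, 2.18 and 2.40 in deleted mice on DDC, against 3.23, 2.96 and 2.99 in deleted mice on standard diet. In controls it stood at 2.53, 1.87 and 2.65 on DDC, against 2.94, 3.11 and 3.19 on standard diet. All DDC libraries lay below the standard libraries of their genotype, with differences of -0.59 ± 0.24 in deleted mice (limma adjusted p = 0.203) and -0.73 ± 0.24 in controls (limma adjusted p = 0.0703) that did not pass the test. The difference in deleted mice was -0.48 ± 0.35 without deleted standard libraries 1 and 3. The strongest Keap1 region, chr9:21210708-21211332, lies 18398 bp beyond the gene in Pde4a and differed by -0.22 ± 0.22 in deleted mice and by -0.08 ± 0.22 in controls, with overlap in each. At Nqo1, the weak region chr8:107405686-107405929, 2481 bp before the gene, was kept in 0 of 3 lists of controls on DDC, against 3 of 3 of controls on standard diet (limma adjusted p = 0.0735). The Cat regions differed by between -0.56 and 0.67 in deleted mice and by between -0.49 and 0.69 in controls, with the lowest adjusted p at 0.171 and 0.107 (limma). The strongest Cat region, chr2:103439680-103440191, lies 13713 bp beyond the gene and overlaps Elf5, and it differed by 0.12 ± 0.18 in deleted mice and by 0.00 ± 0.18 in controls. The strongest Txnrd1 region, chr10:82847794-82848749, lies inside the gene and differed by -0.08 ± 0.16 in deleted mice and by 0.01 ± 0.16 in controls. The 4 Srxn1 regions differed by between -0.22 and 0.38 in deleted mice and by between -0.26 and 0.18 in controls.

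Between genotypes, none of the 125 regions passed the test. On DDC the background was 0.0% of 138538 regions, and on standard diet it was 0.000722%, which is 1 region. At an unadjusted p under 0.05, limma gave 2 of the 125 regions on DDC (1.6%, background 5.94%) and 8 on standard diet (6.4%, background 8.09%). The lowest adjusted p was 0.326 and 0.291. The median difference was 0.01 on DDC and 0.00 on standard diet (log2), against 0.00 over all regions in each. The median on standard diet was -0.03 without deleted standard libraries 1 and 3, with 54 regions higher and 71 lower in deleted mice. Differences ran from -0.61 to 0.47 on DDC and from -0.77 to 0.52 on standard diet. All 3 deleted libraries lay above all 3 controls at 5 regions on DDC (4%, background 4.62%) and at 8 on standard diet (6.4%, background 4.18%), and below at 9 (7.2%, background 5.03%) and 8 (6.4%, background 5.37%). The region with the highest mean level of the 125, chr4:116708058-116708805, lies 8058 bp beyond Prdx1 and overlaps Mmachc and Ccdc163. It stood at 4.36, 4.56 and 4.45 in deleted mice on DDC, against 4.20, 4.19 and 4.23 in controls on DDC, without overlap, and the difference of 0.25 ± 0.10 did not pass the test (limma adjusted p = 0.751).

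The gene starts also gave no genotype call. On DDC, 5 of the 10 starts were higher and 5 lower in deleted mice, between -0.27 at Nfe2l2 and 0.16 at Gclc. On standard diet, 9 were higher and 1 lower, between -0.02 at Cat and 0.35 at Keap1, and without deleted standard libraries 1 and 3 the split was 5 and 5. None of the 125 regions passed the test of a difference in the DDC effect between genotypes, where the background was again 0.0%. For this interaction the lowest adjusted p was 0.847, and 8 regions had an unadjusted p under 0.05 (limma, 6.4%, background 5.87%). The comparisons share samples, since each group serves in 1 diet and 1 genotype comparison.

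A list of 37 other genes of the pathway had 760 regions, of which 440 were tested. In deleted mice DDC raised 5 and lowered 7 of them (2.73%, background 3.17%), at 10 of the 37 genes. In controls DDC raised 12 and lowered 10 (5%, background 7.02%), at 14 genes. No region of the list passed a test between genotypes. At an unadjusted p under 0.05, limma gave 23 on DDC (5.23%, background 5.94%) and 34 on standard diet (7.73%, background 8.09%). The median difference was -0.08 in deleted mice and -0.06 in controls (log2).

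Maff, which encodes a small MAF partner of NRF2, had a region that rose in both genotypes, chr15:79368534-79369442. It stood at 2.43, 2.79 and 2.82 in deleted mice on DDC, against 1.27, 1.27 and 1.91 in deleted mice on standard diet, and at 2.99, 2.96 and 2.84 in controls on DDC, against 1.34, 1.42 and 1.42 in controls on standard diet. The limma adjusted p was 0.0111 in deleted mice, and in controls the rise was 1.53 ± 0.25 (log2, SE, limma adjusted p = 0.000798). With peaks of −log10 q of at least 5 the difference was 0.15 in deleted mice and 0.35 in controls, and both calls were lost (limma adjusted p = 0.479 and 0.0564). The lowest adjusted p over the alternatives was 0.00701 in deleted mice and 0.000460 in controls. Tkt encodes transketolase of the pentose phosphate pathway, and its region chr14:30593186-30594072 was kept in 3 of 3 DDC lists and 0 of 3 standard lists in each genotype (limma adjusted p = 0.0170 in deleted mice and 0.00870 in controls). Slc7a11, the cystine transporter that feeds glutathione synthesis, had a region at chr3:50406827-50407234 kept in 3 of 3 lists of controls on DDC, against 0 of 3 of controls on standard diet (limma adjusted p = 0.00638). In deleted mice it was kept in 2 of 3 lists on DDC, against 1 of 3 on standard diet. Abcc4, an efflux transporter, had one at chr14:118678366-118679031 with the same counts in controls (limma adjusted p = 0.00538). In deleted mice this Abcc4 region was kept in 3 of 3 lists on DDC, against 1 of 3 on standard diet. Gpx4, the phospholipid hydroperoxide glutathione peroxidase, had a region at chr10:80032760-80033454 that rose by 1.16 ± 0.30 in controls (limma adjusted p = 0.0217). That call was lost under 6 of 19 alternatives, among them leaving out control standard library 2 or control DDC library 1 or 2. Over them the difference ranged from 0.38 to 1.45 and the adjusted p from 0.00913 to 0.511.

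Regions near Bach1 and Cul3 fell in both genotypes. Bach1 encodes a repressor that competes for NRF2 sites, and its region chr16:87725877-87726436 stood at 1.67, 2.04 and 1.27 in deleted mice on DDC, against 3.56, 2.95 and 3.10 in deleted mice on standard diet. It fell by 1.55 on the log2 scale, with an SE of 0.27 (limma adjusted p = 0.00245), and fell in controls too (limma adjusted p = 0.0299). Cul3 encodes the scaffold of the ligase that KEAP1 serves, and its region chr1:80247192-80247905 stood at 1.58, 1.44 and 1.42 in deleted mice on DDC, against 2.84, 2.83 and 2.60 in deleted mice on standard diet (limma adjusted p = 0.00504). It also fell in controls (limma adjusted p = 0.0120). Without deleted standard libraries 1 and 3, the Bach1, Cul3 and Tkt regions no longer passed in deleted mice (limma adjusted p = 0.127, 0.0639 and 0.182), and the Maff region did (limma adjusted p = 0.0445). Over the alternatives in deleted mice, the adjusted p ranged from 0.00219 to 0.127 at Bach1, from 0.00622 to 0.0639 at Cul3, from 0.0104 to 0.182 at Tkt and from 0.00701 to 0.479 at Maff. A second Abcc4 region, chr14:118702291-118702551, fell in deleted mice by 1.09 on the log2 scale (limma adjusted p = 0.0199), a call also lost without deleted standard libraries 1 and 3 (limma adjusted p = 0.115) and spanning 0.0129 to 0.117 over the alternatives.

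Markers of each cell type gave the following values. The summed level of the strongest region within 1 kb of each of the 7 macrophage markers was 15.4 to 15.7 in deleted mice on DDC, against 14.7 to 16.8 in deleted mice on standard diet. In controls it was 15.9 to 17.1 on DDC, against 14.3 to 15.1 on standard diet, without overlap. The stellate sums overlapped between diets, at 18.3 to 20.3 on DDC, against 17.5 to 19.3 on standard diet in deleted mice, and at 18.95 to 19.6 on DDC, against 18.6 to 20.2 on standard diet in controls. The sinusoidal endothelial sums also overlapped, at 24.5 to 26.0 on DDC, against 24.03 to 25.4 on standard diet in deleted mice, and at 24.9 to 26.4 on DDC, against 24.5 to 25.4 on standard diet in controls. Sums over the 10 hepatocyte markers were 27.4 to 28.5 on DDC, against 28.8 to 31.5 on standard diet in deleted mice, without overlap. For controls they were 26.1 to 27.6 on DDC, against 27.2 to 28.65 on standard diet, with overlap. In deleted mice none of 46 macrophage and none of 90 endothelial marker regions were called, and 3 rose and 1 fell of 49 stellate regions (8.16%, background 3.17%). In controls 2 rose and 1 fell of 46 macrophage regions (6.52%), 5 rose and none fell of 49 stellate regions (10.2%), and 5 rose and 6 fell of 90 endothelial regions (12.2%), against a background of 7.02%. None of 152 hepatocyte, 27 cholangiocyte and 30 lymphocyte regions were called in deleted mice. In controls 1 rose and 1 fell of the hepatocyte regions (1.32%), and 2 fell of the cholangiocyte regions (7.41%). Of the lymphocyte regions 1 rose and 1 fell there (6.67%). In a mixed preparation, fewer open cells and less opening per cell cannot be told apart. The part of cells other than hepatocytes in the differences at Prdx1, Txnrd1 and Htatip2 was not tested.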

How the data were processed

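ATAC-seq of hepatocytes was analysed from 12 deposited peak lists, 1 per library, on mm10. Per the submitters' processing notes, the tools named were MACS2, Bowtie2, SAMtools, fastp, Picard, deepTools and bedtools. Version, setting, order and any read shift were not given in the sources used here. Columns deposited by the authors hold a fold enrichment ratio, −log10 p- and q-values and an integer score, which was not used.

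Peaks on chromosomes 1 to 19, X and Y with several summits were merged, the strongest 137034 per library kept, and peaks sharing at least 1 bp joined into regions. Values were ranks mapped to the mean log2 fold enrichment of that rank. limma 3.58.1 (R 4.3.3, trend and robust) was fitted to 12 libraries with 4 group means over 138538 regions kept in at least 3 libraries. Tests were two-sided, Benjamini-Hochberg adjusted over all of them, and called under 0.05. The fit was tested on simulated data, with Gaussian noise about the region means and shifts placed in controls on DDC. A shift of 1 (log2) was called in 24% of shifted regions when upward and 38% when downward. For a shift of 2 it was 94% and 96%. The simulated data had no lowest assigned value, so these shares do not cover regions absent from some kept lists. Most simulated shifts of 1 were missed, and an uncalled region may still differ. Gene spans, names and promoters came from RefSeq tables of GRCm38.p6.

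The sample titles give the replicates only a number, and each replicate was taken as a separate mouse. The member genes, the other gene lists and the alternatives were chosen with earlier results of these data known. Regions named were every called member region, each gene's start region and strongest region, and the next 2 by adjusted p in each comparison, and for the other pathway genes the 5 called genes with the largest difference per diet comparison. The result of 1 lymphocyte marker gene is not reported here.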

Additional observations from a re-analysis of the deposited data

How the results depend on the processing

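The count of called regions was small and moved with most settings. In Fbxl5-deleted mice the count of 1 became 2 with peaks of −log10 q of at least 5 (4.42% of all regions called), 0 with 50% reciprocal overlap (1.11%), 0 with centring on the library median (1.9%), 0 over regions in at least 1 library (0.413%), 0 without deleted standard libraries 1 and 3 (0.863%), and 0 within 5 kb of the gene. In floxed controls the count of 9 of 125 became 5 of 162 with all deposited peaks (6.42% of all regions called), 1 of 53 with −log10 q of at least 5 (7.84%), 5 of 118 with 50% reciprocal overlap (4.4%), 1 of 211 over regions in at least 1 library (1.13%), 2 of 69 over regions in all 12 libraries (5.76%) and 5 within 5 kb. A window of 50 kb, chosen after seeing the data, gave 2 and 16. For the 5 kb and 50 kb windows the share over all regions stays at 3.17% and 7.02%. The numbers tested in these windows are not given here, so their counts cannot be set against that share. Leaving out 1 library gave 0 to 2 in deleted mice (1.49% to 2.88% of all regions called) and 2 to 10 in controls (3.61% to 7.57%). In controls, leaving out any of the 3 standard libraries gave 4 (4.19% to 4.77%), and leaving out DDC library 1, 2 or 3 gave 2, 3 or 3 (4.59%, 3.61% and 5.99%). In deleted mice it gave 2 without standard library 1 or 2 (2.2% and 2.75%), and 0 without standard library 3 (2.21%) or any DDC library (1.49% to 1.94%). Member counts for genotype and interaction were 0 under every alternative. Over all 118223 regions of the 50% reciprocal overlap, 238 passed between genotypes on DDC, 149 on standard diet and 73 for the interaction.

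Correlations of deviations from the group means were -0.02 to 0.06 for 18 same-numbered pairs (median 0.0146) and -0.04 to 0.03 for 36 others (median -0.00365). Such low values cannot show whether the mice were paired by replicate number. With the replicate number as a block the counts were 2 in deleted mice (3.02% of all regions called), 8 in controls (6.77%) and 0 in the other comparisons. Centring on the library median moved the median of all regions by under 0.1 and gave 8 in controls (8.74% of all regions called). Rank values carry no read depth, so a weak peak missing from a list was not detectable there rather than absent. With 3 mice per group, small differences stay within the spread.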

Other observations

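Beyond 20 kb from the genes, a window chosen after seeing the data held further called regions. There were 7 of them, 2 higher and 5 lower on DDC in floxed controls. The number tested there is not given here, so this count cannot be set against the share over all regions. At Gclc, chr9:77828399-77828962, 33910 bp outside the gene, differed by 0.48 in deleted mice (limma adjusted p = 0.388) and rose by 1.33 in controls (log2, limma adjusted p = 0.00564). Another Gclc region, chr9:77706536-77706914, differed by -0.91 in deleted mice (limma adjusted p = 0.0650) and fell by 1.02 in controls (limma adjusted p = 0.0228). At Cat, chr2:103511150-103511606, 25997 bp outside the gene, fell by 1.31 in deleted mice (limma adjusted p = 0.0136) and by 1.08 in controls (limma adjusted p = 0.0247). Its neighbour chr2:103511660-103512439 differed by -0.23 in deleted mice (limma adjusted p = 0.547) and fell by 0.78 in controls (limma adjusted p = 0.0127). Around Txnrd1, 3 regions were called in controls and none in deleted mice. There chr10:82785176-82785468 fell by 0.95, chr10:82811842-82812471 fell by 0.67 and chr10:82923471-82923823 rose by 0.68 in controls (limma adjusted p = 0.0164, 0.0492 and 0.0111). The last of these differed by 0.00 in deleted mice, which is also the value given where no deleted list keeps the peak. The kept lists of these 7 regions are not given here, so the filter may have favoured some of these calls. No region within 50 kb of the 10 genes passed a test between genotypes.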
